A study of Mus musculus with 12 samples.

Results

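Transcripts of 10 genes of the hypoxia-inducible factor (HIF) pathway were followed in C2C12GFP cells, a mouse myoblast line that carries green fluorescent protein and fuses into myotubes in low-serum medium. The genes were taken by name from the 55536 genes of the count table. They were *Hif1a* and *Epas1*, which each encode an oxygen-regulated HIF subunit, and *Egln1*, *Egln3*, *Vegfa*, *Adm*, *Slc2a1*, *Ldha*, *Pdk1*, and *Bnip3*, which are known HIF target genes. The question was whether the *Hif1a* transcript moved together with those of its targets when the substrate changed. All groups held cells of this line, grown on uncoated plates (control) or on a coating of Collagen I, of fibronectin, or of Geltrex, a reduced growth factor basement membrane preparation made mostly of laminin, Collagen IV, and entactin. Each of the 4 groups had 3 samples, 12 in all. The labels give no change in oxygen for any group, and the sources used here do not give the day on which RNA for sequencing was collected. Nothing in the labels says that the 3 samples of a group were separate cultures, so p-values measure only the spread between these samples, which may be technical.

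HIF is a pair of proteins, an oxygen-regulated alpha subunit and the constant partner ARNT. In well oxygenated cells the alpha subunit is made and destroyed continuously: prolyl hydroxylases, the products of *Egln1* to *Egln3*, mark it, and the VHL ubiquitin ligase then removes it. When oxygen falls, the protein accumulates and switches on genes for glucose uptake, glycolysis, vessel growth, and mitochondrial turnover. HIF is therefore set largely at the level of the protein, which these data do not measure. In skeletal muscle the pathway is known for its link to glycolytic metabolism and to capillary growth.

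The summed counts per sample lay between 22520404 and 27351766, and values are given as CPM, the library-scaled count, after TMM normalization. The labelled cell type was checked with 7 skeletal muscle genes, all of them detected, among them *Myog*, *Myh3*, and *Ckm*. Their summed level was 6481 to 7277 CPM in the control samples, 7058 to 7191 on Collagen I, 2199 to 2551 on fibronectin, and 2991 to 3238 on Geltrex. The sum over 10 genes of dividing cells ran the other way, with 341 to 395 CPM in the control, 267 to 272 on Collagen I, 788 to 1019 on fibronectin, and 828 to 887 on Geltrex. Against the control, at an adjusted p of at most 0.05 (edgeR), 6 of 7 muscle genes were lower on fibronectin and 7 of 7 on Geltrex. Of all tested genes, 14.7% and 16.6% were lower there. Of the 10 genes of dividing cells, 9 were higher on each, against 17.1% of all genes on fibronectin and 16.4% on Geltrex. In bulk RNA, fewer cells of a type and less RNA per cell cannot be told apart, and the part of this shift in the changes described here was not tested. Markers of endothelial cells summed to 0.769 to 3.49 CPM, with 1 of 5 at 0 in all samples and 1 of 5 above the filter on low counts. Markers of blood cells summed to 6.61 to 12.5 CPM, those of fat cells to at most 0.388 CPM, and those of neurons to between 16.9 and 58.5 CPM. Only *Cd14*, 1 of 5 blood genes, and *Tubb3*, 1 of 4 neuron genes, passed the filter and made up nearly all of these sums. Mitochondrial genes took 4.56% to 8.28% of the counts in 11 samples and 11.5% in Collagen I replicate 3. The Geltrex samples differed less from each other than other replicates did, with a chi-square per gene of 2.18 to 4.54 for their pairs against 7.71 to 64.6 for pairs in the other groups.

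HIF binds DNA at a short core, searched here as ACGTG and GCGTG, which read CACGT and CACGC when they lie on the other strand. The search covered the 250 bases before each RefSeq gene start (build GRCm38.p6). RefSeq windows matched 9 of the 10 genes, all but *Epas1*, and gave 12 windows, since some genes have more than 1 start. All 9 genes had the core in 1 or more of their windows, which is a count per gene. Of the 32851 windows of all genes, 38.6% had it. Those windows (median GC content 52.4%) are not matched to these in GC content or number of starts. *Pdk1* and *Vegfa* each also had a window with 0 cores. For *Vegfa* it was the window next to the annotated start (chr17:46032378-46032627). The *Vegfa* window with cores (chr17:46025164-46025413) held 218 exon bases of its 250. The 5 windows printed here belong to genes that stand at different ends of the results: *Pdk1*, *Bnip3*, and *Adm* rose on Geltrex, *Ldha* did not pass the test there, and *Egln3* fell. Capitals mark the core on either strand, and each window is written 5′ to 3′ on the strand of its gene and ends at the base before the start.
Pdk1, chr2:71872974-71873223, plus strand: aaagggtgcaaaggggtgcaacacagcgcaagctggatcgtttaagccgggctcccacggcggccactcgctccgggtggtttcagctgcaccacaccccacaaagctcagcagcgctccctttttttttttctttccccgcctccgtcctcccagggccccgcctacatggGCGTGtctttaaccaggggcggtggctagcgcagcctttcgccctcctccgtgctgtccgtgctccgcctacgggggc
Bnip3, chr7:138909507-138909756, minus strand: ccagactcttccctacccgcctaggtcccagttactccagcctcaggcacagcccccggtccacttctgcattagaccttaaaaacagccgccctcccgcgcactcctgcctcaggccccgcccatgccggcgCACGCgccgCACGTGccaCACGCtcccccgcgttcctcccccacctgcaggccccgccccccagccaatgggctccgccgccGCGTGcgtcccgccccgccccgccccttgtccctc
Ldha, chr7:46845554-46845803, plus strand: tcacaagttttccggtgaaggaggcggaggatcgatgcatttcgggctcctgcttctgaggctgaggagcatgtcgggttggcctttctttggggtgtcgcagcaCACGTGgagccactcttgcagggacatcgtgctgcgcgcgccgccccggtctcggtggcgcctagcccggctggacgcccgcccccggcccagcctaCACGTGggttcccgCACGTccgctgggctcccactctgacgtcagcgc
Adm, chr7:110627407-110627656, plus strand: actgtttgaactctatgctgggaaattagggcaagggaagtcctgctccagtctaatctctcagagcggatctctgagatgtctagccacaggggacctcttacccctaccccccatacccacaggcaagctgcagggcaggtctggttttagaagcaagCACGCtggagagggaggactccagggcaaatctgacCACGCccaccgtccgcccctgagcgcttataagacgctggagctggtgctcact
Egln3, chr12:54203875-54204124, minus strand: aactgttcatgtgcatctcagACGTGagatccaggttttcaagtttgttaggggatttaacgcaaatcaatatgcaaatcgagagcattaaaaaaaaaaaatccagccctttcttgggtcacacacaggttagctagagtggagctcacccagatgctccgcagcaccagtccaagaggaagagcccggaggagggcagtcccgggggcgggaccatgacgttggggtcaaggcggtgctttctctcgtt
The *Pdk1* window held 1 core, 78 bases before the start, and the *Egln3* window 1 core, 229 bases before it. The *Adm* window held 2 cores, both on the other strand. The *Bnip3* and *Ldha* windows held 5 each, in which the palindrome CACGTG counts as 2 because it reads as a core on both strands, and 6.6% of all windows held 3 or more. On Geltrex *Bnip3*, with 5 cores, rose, *Ldha*, with 5, did not pass the test, and *Egln3*, with 1, fell. These windows were picked by how their genes changed, and a relation between cores and changes was not tested.

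On the scale that allows genes to be compared, CPM per kilobase of exon averaged over the 12 samples, *Ldha* was the most abundant of the 10 at 219.9. *Hif1a* (47.2), *Egln3* (43.5), *Vegfa* (41.5), *Bnip3* (36.2), *Egln1* (29.4), *Slc2a1* (20.6), and *Pdk1* (13.7) followed within a narrow band. *Adm* (1.57) and *Epas1* (0.040) were far lower. Between *Hif1a* and *Epas1*, *Hif1a* thus held nearly all of the transcript. *Epas1*, which encodes HIF-2 alpha (chromosome 17, 86753700 to 86833410, GRCm38), had 1 to 11 counts per sample and did not pass the filter on low counts, so no difference could be tested.

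*Hif1a* (ENSMUSG00000021109, chromosome 12, 73901375 to 73947530) encodes the HIF-1 alpha subunit. Its level was 202, 268, and 257 CPM in the 3 control samples, 204, 220, and 158 on Collagen I, 368, 420, and 308 on fibronectin, and 313, 308, and 316 on Geltrex. Every fibronectin and Geltrex sample lay above every control and Collagen I sample, whereas the control and Collagen I samples overlapped and the fibronectin and Geltrex samples overlapped. The order of the means was fibronectin, Geltrex, control, and Collagen I, and the highest was 1.88 times the lowest. Against the control, *Hif1a* rose on fibronectin by a log2 fold change of 0.59 (SE 0.13, edgeR quasi-likelihood test with Benjamini-Hochberg adjustment, adjusted p = 0.00323) and on Geltrex by 0.36 (SE 0.13, adjusted p = 0.045). The Geltrex call held in 10 of 19 alternative settings. Without control replicate 1, the lowest control sample, the log2 fold change was 0.25 with an adjusted p of 0.185, and the call was also lost without control replicate 3, Collagen I replicate 1, fibronectin replicate 1, or any 1 of the Geltrex samples (adjusted p of 0.0552 to 0.11). On Collagen I the log2 fold change was -0.32 (95% interval -0.63 to -0.015, adjusted p = 0.276), and fibronectin and Geltrex differed by 0.23 (interval -0.079 to 0.53, adjusted p = 0.248). Of the exon bases of *Hif1a*, 8.11% are shared with other annotated genes, the larger share with the opposite-strand gene *Gm15283*, which had 107 counts over all samples.

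**Figure D1:**
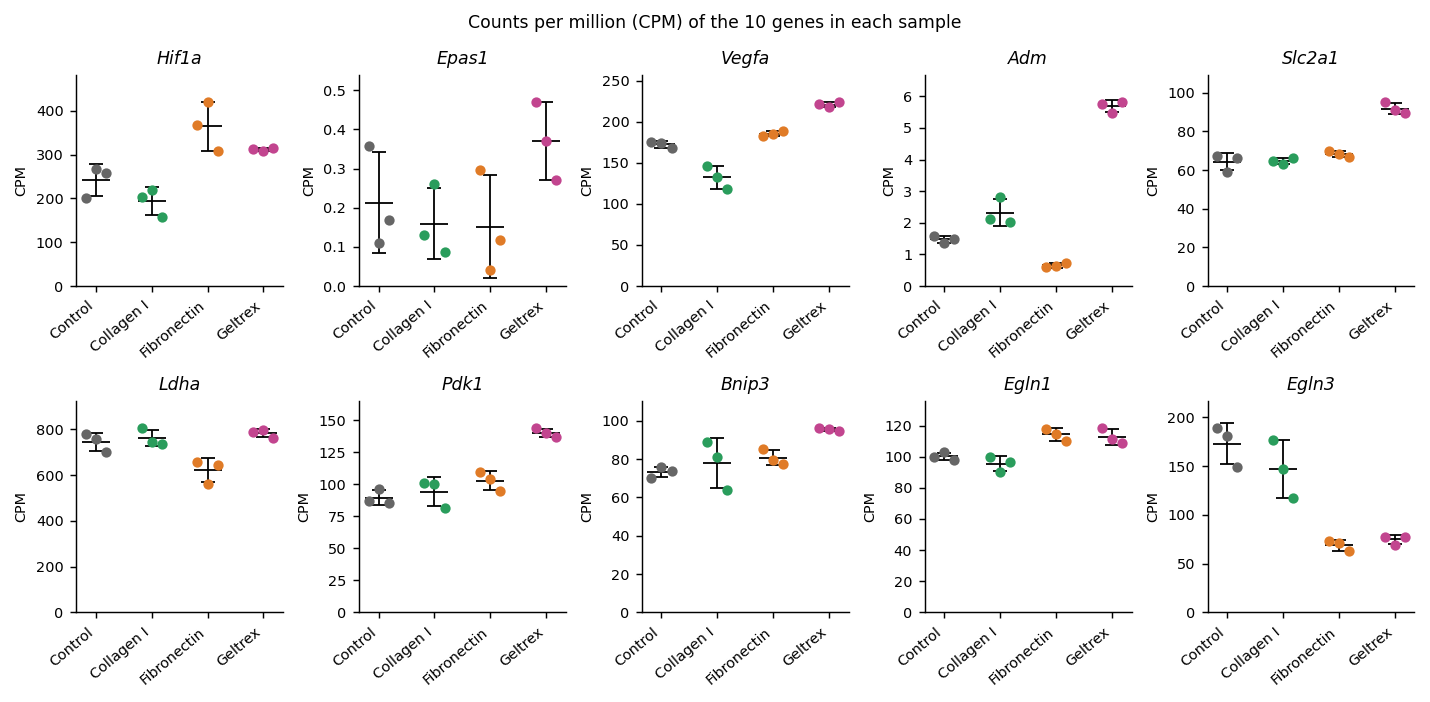
CPM of each of the 10 genes (vertical axis, from 0, a scale of its own for each gene) in the 12 samples by substrate (horizontal axis). Points are samples, the long bar is the group mean and the error bar is 1 SD of 3 samples. *Hif1a* was high on fibronectin and Geltrex, *Egln3* was low on both, and *Adm* ran from 0.594 to 0.738 CPM on fibronectin and from 5.48 to 5.82 on Geltrex.

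*Egln1* and *Egln3* encode prolyl hydroxylases that mark HIF alpha for destruction, and both are HIF targets, which makes them a feedback loop. *Egln3* (chromosome 12, 54178981 to 54203860) had 189, 181, and 149 CPM in the control, 177, 146, and 117 on Collagen I, 72.9, 70.8, and 62.6 on fibronectin, and 77.4, 69.3, and 77.6 on Geltrex. All 6 fibronectin and Geltrex samples lay below all 6 of the others, the reverse of *Hif1a*. Relative to the control, *Egln3* fell by 1.33 (log2, SE 0.13, adjusted p = 1.46e-06) on fibronectin and by 1.21 (SE 0.13, adjusted p = 2.79e-06) on Geltrex, and both calls held in all alternatives. *Egln1* (chromosome 8, 124908587 to 124949324), the main oxygen sensor of most cells, had 99.9, 103, and 97.9 CPM in the control, 99.7, 90.4, and 96.4 on Collagen I, 118, 115, and 110 on fibronectin, and 118, 111, and 109 on Geltrex. Its groups followed the order of *Hif1a*, and the fibronectin and Geltrex samples lay above the others, but within a range of 1.20 times between the group means. Against the control, its log2 fold change of 0.19 on fibronectin (SE 0.071, adjusted p = 0.0511) and 0.17 on Geltrex (SE 0.071, adjusted p = 0.0782) did not pass the test in edgeR with TMM normalization. Both passed in DESeq2 (adjusted p = 0.0193 and 0.0406), and the fibronectin change also passed in edgeR with RLE normalization (adjusted p = 0.045). Against Collagen I, *Egln1* was higher by 0.26 on fibronectin (adjusted p = 0.00788) and by 0.24 on Geltrex (adjusted p = 0.0152). The latter call held in 15 of 19 alternatives. It was lost, among others, without Collagen I replicate 2 (adjusted p = 0.0589), Geltrex replicate 1 (0.0747), or the filter on low counts (0.0617). Against the control, the fibronectin change passed without Collagen I replicate 2 (adjusted p = 0.0491) or fibronectin replicate 3 (0.0403).

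*Vegfa* and *Adm* encode secreted factors that act on blood vessels. *Vegfa* (chromosome 17, 46016993 to 46032369), the main vessel growth factor, had 175, 174, and 168 CPM in the control, 146, 132, and 118 on Collagen I, 183, 185, and 189 on fibronectin, and 221, 217, and 224 on Geltrex. None of the 4 groups overlapped another, in the order Geltrex, fibronectin, control, and Collagen I. *Vegfa* rose by 0.36 on Geltrex relative to the control (SE 0.077, adjusted p = 0.00216) and fell by 0.38 on Collagen I (SE 0.078, adjusted p = 0.0253). The change of 0.10 on fibronectin did not pass (95% interval -0.074 to 0.28, adjusted p = 0.326). The Collagen I call was lost in 8 of 18 alternatives, among them without any 1 control sample, any 1 Geltrex sample, or Collagen I replicate 2 (adjusted p of 0.0536 to 0.104). The order of the groups differed from that of *Hif1a* only in that Geltrex stood above fibronectin.

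*Adm* (chromosome 7, 110627661 to 110629820) encodes adrenomedullin, a peptide that widens vessels, and its 15 to 135 counts per sample were the fewest of these 9 tested genes. It had 1.59, 1.36, and 1.49 CPM in the control, 2.12, 2.82, and 2.03 on Collagen I, 0.594, 0.628, and 0.738 on fibronectin, and 5.77, 5.48, and 5.82 on Geltrex. No group overlapped another, and fibronectin and Geltrex, the substrates that shared a high *Hif1a* level, stood at the opposite ends. *Adm* rose by 1.94 (SE 0.18, adjusted p = 7.87e-07) on Geltrex and fell by 1.17 (SE 0.23, adjusted p = 0.00119) on fibronectin, each relative to the control. Between fibronectin and Geltrex the difference was -3.11 (SE 0.20, adjusted p = 3.67e-08), or 8.65-fold. On Collagen I the log2 fold change of 0.66 did not pass (SE 0.19, adjusted p = 0.108), although its samples lay above those of the control.

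*Slc2a1*, *Ldha*, and *Pdk1* serve glucose use, and *Bnip3* serves mitochondrial turnover. *Slc2a1* (chromosome 4, 119108711 to 119137983), which encodes the glucose transporter GLUT1, had 67.4, 59.2, and 66.4 CPM in the control, 64.8, 63.1, and 66.2 on Collagen I, 69.9, 68.1, and 67.0 on fibronectin, and 95.1, 90.9, and 89.4 on Geltrex. Geltrex stood apart and the other 3 groups lay close together. *Slc2a1* rose by 0.51 on Geltrex relative to the control (SE 0.072, adjusted p = 4.95e-05), whereas on fibronectin the log2 fold change was 0.088 (95% interval -0.080 to 0.25, adjusted p = 0.384). Fibronectin was lower than Geltrex by 0.43 on the log2 scale (SE 0.072, adjusted p = 0.000608).

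*Pdk1* (chromosome 2, 71873224 to 71903858) encodes a kinase that holds pyruvate back from the mitochondria. It had 86.6, 96.3, and 85.7 CPM in the control, 101, 100, and 81.3 on Collagen I, 109, 104, and 94.7 on fibronectin, and 144, 140, and 137 on Geltrex. All Geltrex samples lay above all others, and the other 3 groups overlapped. *Pdk1* rose by 0.65 on Geltrex (SE 0.091, adjusted p = 5.13e-05), its change on fibronectin was 0.20 (95% interval -0.012 to 0.41, adjusted p = 0.11), and the difference between fibronectin and Geltrex was -0.45 (SE 0.091, adjusted p = 0.00259).

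*Bnip3* (chromosome 7, 138890836 to 138909519), a receptor for the removal of mitochondria by autophagy, had 70.4, 75.7, and 73.7 CPM in the control, 89.1, 81.0, and 63.7 on Collagen I, 85.1, 79.5, and 77.7 on fibronectin, and 96.1, 95.9, and 94.9 on Geltrex. All Geltrex samples lay above all others. The Collagen I samples spread more widely than the control and fibronectin samples and covered both, and the lowest was replicate 3, the library with the high mitochondrial share. *Bnip3* rose by 0.38 on Geltrex relative to the control (SE 0.099, adjusted p = 0.00712). Against Collagen I the rise was 0.29 (SE 0.099, adjusted p = 0.0285), and without Collagen I replicate 3 it was 0.17 with an adjusted p of 0.104, and the call was lost without any 1 Geltrex sample as well (adjusted p of 0.0679 to 0.0716). Its exons share 22.3% of their bases with the opposite-strand gene *Gm45507*, which had no count.

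*Ldha* (chromosome 7, 46841475 to 46855627), which encodes the lactate dehydrogenase subunit that favors lactate production, had 779, 757, and 702 CPM in the control, 804, 746, and 736 on Collagen I, 659, 562, and 644 on fibronectin, and 789, 796, and 762 on Geltrex. Only the fibronectin samples stood apart, below all others. *Ldha* fell by 0.26 on fibronectin relative to the control (SE 0.081, adjusted p = 0.021), a call that held in 14 of 18 alternatives. It was lost without control replicate 1 (adjusted p = 0.0797), control replicate 2 (0.0563), or fibronectin replicate 2 (0.0991). It was also lost in the fit of only the 6 samples compared (0.0546). On Geltrex its log2 fold change was 0.068 (95% interval -0.12 to 0.25, adjusted p = 0.561).

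**Figure D2:**
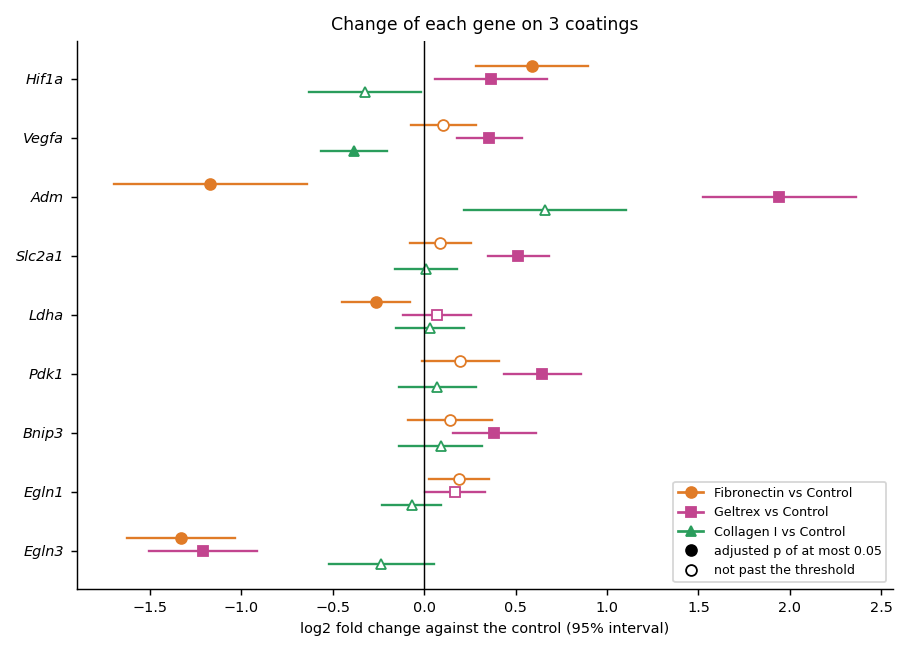
Log2 fold change of the 9 tested genes against the control (horizontal axis) on fibronectin (circles), Geltrex (squares), and Collagen I (triangles), with 95% intervals. Filled symbols passed an adjusted p of 0.05. *Adm* lay at -1.17 on fibronectin and at 1.94 on Geltrex, while *Egln3* lay at -1.33 and -1.21.

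Counted over the 9 tested genes, the substrates gave different pictures. On fibronectin, 1 gene was higher than in the control (*Hif1a*) and 3 were lower (*Egln3*, *Ldha*, and *Adm*), 4 of 9 in all where 31.9% of the 14499 tested genes were called, 17.1% higher and 14.7% lower. On Geltrex, 6 genes were higher (*Hif1a*, *Vegfa*, *Slc2a1*, *Pdk1*, *Bnip3*, and *Adm*) and *Egln3* was lower, 7 of 9 where 33% of all genes were called, 16.4% higher and 16.6% lower. On Collagen I, *Vegfa* alone was called, 1 of 9 against 1.12% of all genes, 0.2% higher and 0.917% lower. With a fold of at least 2 asked for as well, *Egln3* and *Adm* were called on fibronectin (6.66% of all genes) and on Geltrex (9.14%), and no gene on Collagen I (0.131%). The median log2 fold change of the 9 genes was 0.10 on fibronectin, 0.36 on Geltrex, and 0.0092 on Collagen I, and that of all tested genes was -0.016, -0.012, and -0.0031. With the 3 Geltrex samples summed into 1, which is then assumed to vary like the samples of the other groups, 13.3% of all genes were called. In that fit 4 genes kept their Geltrex call (*Slc2a1*, *Pdk1*, *Egln3*, and *Adm*). The log2 fold changes of *Hif1a* (0.37, adjusted p = 0.283), *Vegfa* (0.37, adjusted p = 0.0801), and *Bnip3* (0.39, adjusted p = 0.123) were as large as before but no longer passed.

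Against Collagen I, fibronectin had 3 genes higher (*Hif1a* by 0.91, *Vegfa* by 0.49, and *Egln1* by 0.26, log2) and 3 lower (*Egln3* at -1.10, *Ldha* at -0.29, and *Adm* at -1.83), where 45% of all genes were called, 22.9% higher and 22.1% lower. Geltrex had 7 higher than Collagen I and *Egln3* lower (-0.97), with *Ldha* not called, where 37.1% of all genes were called, 19% higher and 18.2% lower. With a fold of at least 2, *Egln3* and *Adm* were called on fibronectin (8.46% of all genes) and *Adm* on Geltrex (9.32%). These comparisons share samples with those against the control and are not independent of them. The direct comparison of fibronectin with Geltrex called 5 of 9 genes against 19.3% of all genes (10.3% higher and 9.06% lower), and all 5 (*Vegfa*, *Slc2a1*, *Pdk1*, *Ldha*, and *Adm*) were lower on fibronectin, whereas *Hif1a* and *Egln1* did not pass in either direction. At a fold of at least 2 *Adm* was called in it, as were 3.98% of all genes. *Bnip3* (-0.24, adjusted p = 0.0965) passed without Collagen I replicate 3 (adjusted p = 0.0147) and in the fit of only the 6 samples compared (adjusted p = 0.014). The call of *Vegfa* in that comparison (log2 fold change -0.25, adjusted p = 0.0325) was lost without fibronectin replicate 1 or 2 or any Geltrex sample, with adjusted p-values of 0.0809 to 0.105. It was also lost with no filter on low counts (adjusted p = 0.0757). With the 3 Geltrex samples summed into 1, *Adm* alone of the 5 kept its call, and 4.49% of all genes were called.

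Whether a gene changed by a different amount than *Hif1a* was tested on the log2 ratio of each gene to *Hif1a* within a sample, with limma and Benjamini-Hochberg adjustment. Between the control and fibronectin the ratio fell for all 8 targets, by 1.91 for *Egln3*, 1.68 for *Adm*, 0.86 for *Ldha*, 0.50 for *Slc2a1*, 0.49 for *Vegfa*, 0.45 for *Bnip3*, 0.40 for *Egln1*, and 0.39 for *Pdk1*, with adjusted p-values from 1.49e-06 to 0.0382. The ratio to *Hif1a* also fell for 60.8% of all 14498 genes, rose for 1.77%, and was called in either direction for 62.5%, so that a fall relative to *Hif1a* was found in most genes. *Hif1a* itself varied by 14.8% (coefficient of variation) among the control and 15.4% among the fibronectin samples, and without control replicate 1 or fibronectin replicate 2 only the ratios of *Egln3*, *Ldha*, and *Adm* were called.

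Between the control and Geltrex, 2 of 8 ratios were called, where 36.3% of all genes were, 4.01% higher and 32.3% lower. *Egln3* fell by 1.58 relative to *Hif1a* (SE 0.16, adjusted p = 1.04e-05) and *Adm* rose by 1.51 (SE 0.26, adjusted p = 0.000646). With the 3 Geltrex samples summed into 1, the *Egln3* ratio kept its call and that of *Adm* did not (1.52, adjusted p = 0.0689), where 4.7% of all ratios were called. The ratios of *Vegfa* (-0.019, SE 0.15), *Bnip3* (0.0084, SE 0.13), *Slc2a1* (0.14, SE 0.17), and *Pdk1* (0.27, SE 0.13) did not pass, which at these errors does not show that they changed alike. Against Collagen I, all 8 ratios were lower on fibronectin (84.1% of all genes called, 82.7% lower and 1.41% higher). Those of *Bnip3*, *Egln1*, *Egln3*, and *Ldha* were lower on Geltrex (74.9% of all genes called, 72.1% lower and 2.83% higher). Without Geltrex replicate 3, only *Egln3* and *Ldha* of them were called. With the Geltrex samples summed, fewer of them were called, as were fewer of all ratios.

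**Figure D3:**
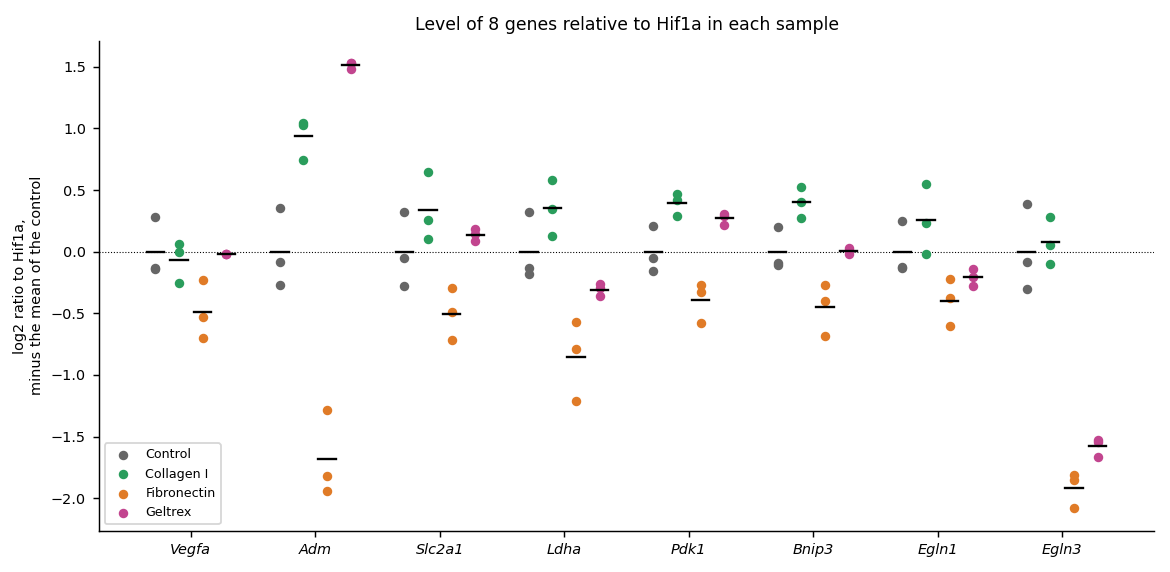
Log2 ratio of 8 genes to *Hif1a* in each of the 12 samples (vertical axis), after the mean of the control samples is subtracted, by gene (horizontal axis) and substrate (color). Bars are the means of 3 samples. The fibronectin samples lay below the control samples for all 8 genes, and the Geltrex samples lay above them for *Adm* (mean 1.51) and *Pdk1*, below them for *Egln3* (mean -1.58), *Ldha*, and *Egln1*, and overlapped with them for the others.

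The genes whose pattern over the 12 samples was most like that of *Hif1a* were not among the targets followed here. Whether they are HIF targets themselves was not examined. Likeness was measured as the root mean square difference between log2 CPM values after each gene's own mean was subtracted, on which the spread of *Hif1a* itself was 0.39. The nearest of 14498 genes were *Slc25a24* (0.049), which encodes a mitochondrial carrier, *Rybp* (0.055), a Polycomb protein gene, *Arhgap21* (0.064), *Myo9a* (0.073), and *Pdzd8* (0.075). They were picked for their likeness over these same samples, so that they follow *Hif1a* is no separate result. Each was low in control replicate 1 and lowest in Collagen I replicate 3, the library with the highest mitochondrial share, and the part of that library in this likeness was not tested. Of the targets, *Vegfa* was the nearest at 0.25, with 9.82% of genes closer. *Egln1* (0.30), *Pdk1* (0.32), *Bnip3* (0.33), and *Slc2a1* (0.36) came next, with 16.1% to 27.6% of genes closer. *Ldha* (0.49), *Egln3* (0.92), and *Adm* (1.23) lay further from *Hif1a* than its own spread, and 51.9%, 93.4%, and 98.1% of genes were closer.

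**Figure D4:**
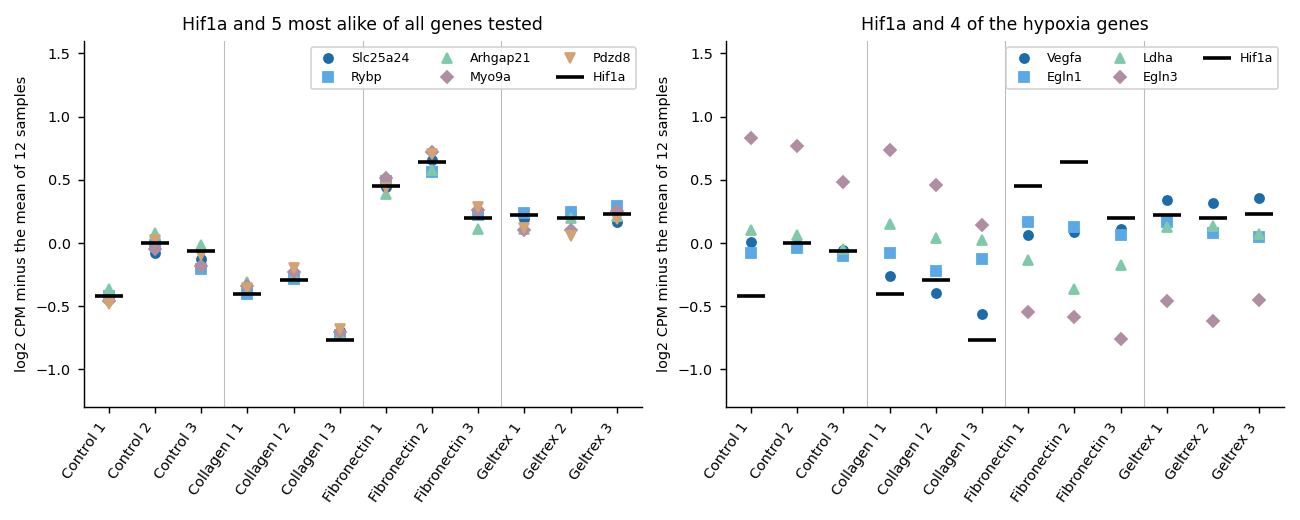
Log2 CPM minus the mean of the 12 samples (vertical axis) in each sample (horizontal axis) for *Hif1a* (black bars) with the 5 genes nearest to it (left) and with 4 of the hypoxia genes (right). On the left all symbols follow the bars sample by sample, at distances of 0.049 to 0.075, and on the right *Egln3* runs opposite to them, at a distance of 0.92.

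The rest of the pathway was taken from 7 lists with 70 further genes, of which 63 passed the filter. On fibronectin, 12 were higher and 6 lower than in the control, or 28.6% of those tested, near the 31.9% of all genes. On Geltrex, 27 were higher and 11 lower, or 60.3%, where 33% of all genes were called. On Collagen I 1 gene was called, *Cxcr4*, or 1.59%, near the 1.12% of all genes. The median log2 fold change of the 63 genes was 0.10 on fibronectin and 0.18 on Geltrex. With the 3 Geltrex samples summed into 1, fewer genes were called on Geltrex, both in the lists and among all genes.

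Among the 9 tested genes of oxygen sensing, 1 was lower on fibronectin (11.1%, against 31.9% of all genes). On Geltrex 2 were higher and 1 lower (33.3%, near the 33% of all genes). The gene that fell in both was *Hif1an*, which encodes an asparagine hydroxylase that blocks HIF activity. Its level was 67.3 to 87.8 CPM in the control, 77.1 to 84.1 on Collagen I, 48.7 to 58.7 on fibronectin, and 52.2 to 60.0 on Geltrex. The fibronectin and Geltrex samples lay below the others. Against the control, *Hif1an* fell by 0.54 on fibronectin (SE 0.10, adjusted p = 9e-04) and by 0.52 on Geltrex (SE 0.10, adjusted p = 0.00102). *Arnt*, the constant partner and a gene chosen after its values were seen, had log2 fold changes of 0.00029 on fibronectin (adjusted p = 0.998) and -0.015 on Geltrex (adjusted p = 0.916). The other genes called on Geltrex, also named after their values were seen, were *Vhl* (0.29, adjusted p = 0.0134) and *Eloc* (0.20, adjusted p = 0.034), both parts of the ligase that removes HIF alpha, and both were higher.

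Of 18 tested genes of glucose use, 2 were higher and 2 lower on fibronectin (22.2%, against 31.9% of all genes). Their median log2 fold change there was 0.12. On Geltrex 9 were higher and 1 lower (55.6%, against 33% of all genes), with a median of 0.33. *Aldoa*, the muscle aldolase gene, was the lowest of all pathway genes on fibronectin at -0.73 (SE 0.10, adjusted p = 6.38e-05), and its level there was 530 to 662 CPM against 927 to 1100 in the control. It was lower on Geltrex as well (-0.31, adjusted p = 0.0258), in the same samples in which the summed skeletal muscle genes were lower, whose part in this was not tested. *Slc16a3*, which encodes the lactate exporter MCT4 and was chosen after its values were seen, rose on Geltrex by 0.77 (SE 0.17, adjusted p = 0.00222) and had 0.26 on fibronectin (SE 0.17, adjusted p = 0.269). Among 5 genes of mitochondria and autophagy, 2 were higher on fibronectin (40%, against 31.9% of all genes). On Geltrex 3 were higher and 1 lower (80%, against 33%). *Bnip3l*, the close relative of *Bnip3*, and *Fam162a* rose on fibronectin (by 0.39 and 0.35) and on Geltrex (by 0.25 and 0.59), *Higd1a* rose on Geltrex (by 0.49), and *Mxi1*, a repressor of Myc targets, fell there by 0.45, all named after their values were seen.

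The widest changes were in the 10 vascular and secreted genes. On fibronectin 3 were higher and 1 lower (40%, against 31.9% of all genes). On Geltrex 5 were higher and 3 lower (80%, against 33%). *Edn1*, which encodes the vessel-constricting peptide endothelin, had 0.257 to 0.716 CPM in the control (7 to 18 counts), 0.669 to 1.48 on fibronectin, and 9.60 to 10.7 on Geltrex, a log2 fold change of 4.54 on Geltrex (SE 0.28, adjusted p = 1.25e-08) and 1.29 on fibronectin (SE 0.35, adjusted p = 0.011). *Ccn2*, a matricellular growth factor gene, had 91.7 to 102 CPM in the control, 516 to 581 on Geltrex, and 102 to 126 on fibronectin, with a rise of 2.50 on Geltrex (SE 0.10, adjusted p = 4.19e-10). Both are also known targets of other pathways. *Cxcr4*, a chemokine receptor gene, fell on all 3 coatings, by 0.73 on Collagen I (adjusted p = 0.00141), 0.64 on fibronectin (adjusted p = 8.36e-05), and 1.96 on Geltrex (adjusted p = 2.29e-09). *Stc2*, which encodes a secreted glycoprotein, fell by 1.14 on Geltrex (SE 0.20, adjusted p = 0.000365).

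Of 13 feedback and chromatin genes, 3 were higher and 2 lower on fibronectin (38.5%, against 31.9% of all genes). On Geltrex 4 were higher and 4 lower (61.5%, against 33%). *Ddit4*, an inhibitor of mTOR signaling and a classical hypoxia gene, had 22.5 to 27.8 CPM in the control and 5.46 to 6.22 on Geltrex, a fall by 2.08 (SE 0.15, adjusted p = 4.51e-08), the lowest value of the pathway on that substrate. On fibronectin it had 23.4 to 30.2 CPM, and fibronectin exceeded Geltrex by 2.21 (adjusted p = 4.97e-08). *Cited2*, which encodes a protein that competes with HIF for its coactivators, had 237 to 270 CPM in the control and 755 to 772 on Geltrex, a rise of 1.59 (SE 0.11, adjusted p = 4.51e-08). It was lower on fibronectin than on Geltrex (-1.91, adjusted p = 1.32e-08) and lower than on Collagen I (-0.41, adjusted p = 0.00728). *Ankrd37* was lower on fibronectin than in the control (-0.57, adjusted p = 0.0128), and *Vldlr*, a lipoprotein receptor gene, was higher on fibronectin than on Geltrex (0.93, adjusted p = 0.000101). Thus *Adm* and *Ddit4*, both HIF targets, moved in opposite directions on Geltrex.

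In the smaller lists, 1 of 3 tested genes of acid and iron handling was higher on fibronectin (33.3%, near the 31.9% of all genes). On Geltrex 2 were higher (66.7%, against 33% of all genes). They were the transferrin receptor gene *Tfrc* (0.50 on fibronectin and 0.42 on Geltrex) and the carbonic anhydrase gene *Car9* (0.74 on Geltrex). Both were named after their values were seen. Of 5 matrix enzymes, 1 was higher on fibronectin (20%, against 31.9% of all genes) and 2 were higher and 1 lower on Geltrex (60%). The gene higher on fibronectin was *Lox*, which encodes lysyl oxidase, the enzyme that cross-links collagen (0.77, SE 0.11, adjusted p = 5.59e-05). Against Collagen I, *Lox* was higher by 1.07 (adjusted p = 1.59e-06) and *Hmox1*, the heme oxygenase gene, by 1.12 (adjusted p = 1.96e-05) on fibronectin. In the direct comparison of fibronectin with Geltrex, 12 pathway genes were higher and 14 lower, 41.3% of those tested against 19.3% of all genes, a count of 26 that was 17 without fibronectin replicate 2 or Geltrex replicate 1 and 16 without Geltrex replicate 2.

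**Figure D5:**
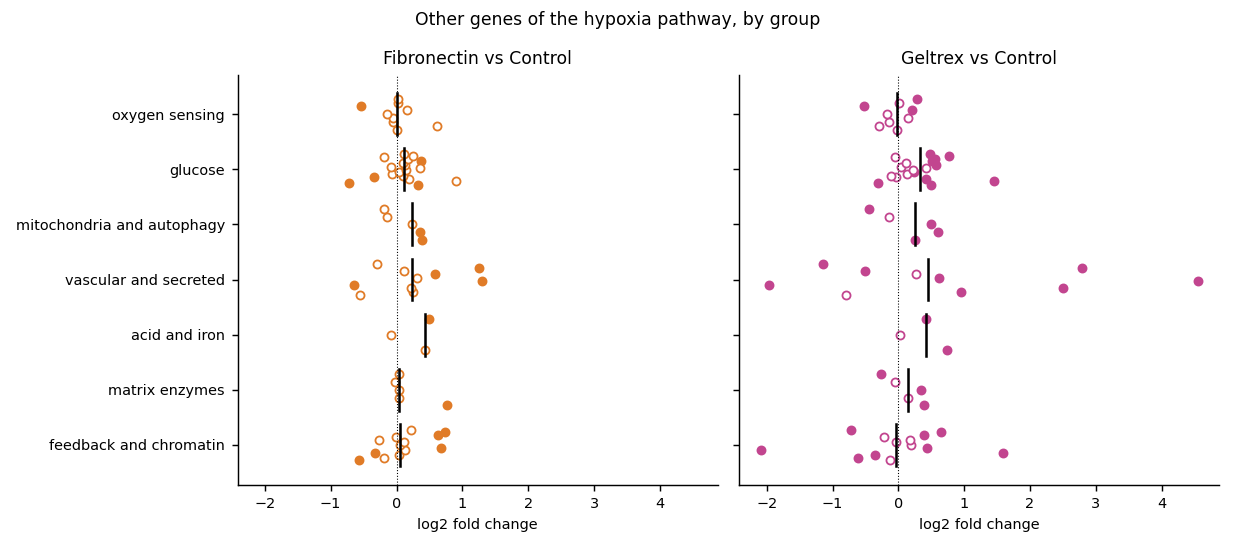
Log2 fold change (horizontal axis) of the 63 tested pathway genes by list (vertical axis) on fibronectin (left) and Geltrex (right), each against the control. Filled points passed an adjusted p of 0.05 and black bars are list medians. The points spread from -0.73 to 1.29 on fibronectin and from -2.08 to 4.54 on Geltrex.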

How the data were processed

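RNA of 12 samples was sequenced by the authors as paired reads, trimmed with Trimmomatic, aligned with HISAT2, and counted with featureCounts, and they deposited raw read counts per gene, not normalized and not pooled. Tool versions, the genome build, and the strand setting are not given in the sources used here, so reads of genes that overlap on opposite strands may not be told apart. Identifiers were matched to GENCODE M21 (GRCm38) for names, positions, and exon lengths. *Ero1a* was matched through a RefSeq synonym, and of 2 identifiers named *Aldoa* the one with more counts was used.

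edgeR 4.0.16 in R 4.3.3 was run on the counts with filterByExpr (minimum count 10, minimum total 15, 14499 genes kept), TMM scaling, and 1 quasi-likelihood model of the 4 groups with 8 residual degrees of freedom. A call is an adjusted p (Benjamini-Hochberg over all genes) of at most 0.05 with no fold minimum. The SE is the log2 fold change divided by the root of F. Ratios to *Hif1a* were tested with limma 3.58.1 on log2 CPM (prior count 2). The 10 genes, the pathway lists, and the marker lists were chosen with earlier results of these data known. Of the lists, the text names in each comparison the 3 highest and 3 lowest called genes, besides the 5 genes most like *Hif1a*, and further genes that it marks as named after their values were seen. A result for 1 gene that this rule names is not reported here. The procedure was tested on simulated data. Alternatives were DESeq2 1.42.0, RLE normalization, other filters on low counts, a fold of at least 2, only the 6 samples compared, the replicate number as a block, and leaving out each sample. A prior count of 0.5 was tried for the ratios, and summing the 3 Geltrex samples was added after seeing the data.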

Additional observations from a re-analysis of the deposited data

How the results depend on the processing

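With a fold of at least 2, the 9 tested genes gave 0 calls on Collagen I, 2 on fibronectin, and 2 on Geltrex against the control, 2 on fibronectin and 1 on Geltrex against Collagen I, and 1 on fibronectin against Geltrex. The 63 tested genes of the pathway lists gave 0, 2, 8, 3, 7, and 6 in the same order. Of all 14499 tested genes, 0.131%, 6.66%, 9.14%, 8.46%, 9.32%, and 3.98% were called in that order. For Collagen I against the control, the lists gave 3 calls with DESeq2, and with no filter on low counts the lists gave 3 and the 9 genes 2 (*Hif1a* and *Vegfa*). That comparison gave 0 of the 9 genes in the fit of only the 6 samples compared. With the 3 Geltrex samples summed into 1, an alternative added after seeing the data in which that sample is assumed to vary like those of the other groups, the 9 genes gave 4 calls against the control and 1 against fibronectin, the lists gave 21 against the control, 12 against Collagen I, and 8 against fibronectin, and ratios to *Hif1a* gave 1 against the control and 1 against Collagen I. Without each sample in turn, calls among the 9 genes, in the order above, ranged from 0 to 1, 3 to 5, 6 to 7, 6 to 6, 6 to 8, and 4 to 6, and those of the lists from 1 to 2, 14 to 21, 31 to 40, 17 to 25, 25 to 32, and 16 to 29. Ratio calls ranged from 3 to 8 for fibronectin and 2 to 2 for Geltrex against the control, and from 7 to 8 and 2 to 5 against Collagen I, where the count of 2 came without Geltrex replicate 3. Values near 0 that were never called changed sign when 1 sample was left out: for Collagen I against the control *Slc2a1* (-0.042 and -0.016, highest 0.044), *Ldha* (-0.012 and -0.0070, highest 0.062), and *Bnip3* (-0.014, highest 0.21), for fibronectin against Collagen I *Bnip3* (-0.080, highest 0.16), and for fibronectin against Geltrex *Egln1* (-0.0055 and -0.0047, highest 0.052). Of the other results for single genes under an alternative, 941 kept direction and call, 42 lost the call, and 8 gained it. The share of all genes called was not recorded for DESeq2, no filter, only the 6 samples compared, or each sample left out. The counts of those alternatives therefore stand without a background. The cause of the shifts between settings was not tested.

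Deviations of same-numbered samples were correlated above 0 in all 3 pairs for fibronectin and Collagen I alone (0.047, 0.169, and 0.225), with 1 of the 3 under the 0.1 asked for, and in the other comparisons 1 or more pairs were under it too, so the replicate number was not treated as a pairing. With it as a block, calls among the 9 genes were 1, 4, 7, 6, 8, and 5, as without it, and those of the lists 1, 18, 38, 22, 30, and 26. With 1 to 11 counts per sample, *Epas1* was left untested.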
